A study of Mus musculus with 12 samples.

Results

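The comparison described here is that of Aoah with Vector in B16F10 tumours treated with 2 checkpoint antibodies, and it rests on 4 of the 12 libraries of the study. Its members were chosen by the sample titles: the libraries of B16F10 tumours 1 and 2 with Aoah over-expression (Aoah 1 and Aoah 2) and those of the B16F10 tumours with vector over-expression (Vector 1 and Vector 2). B16F10 is a pigmented mouse melanoma line, and the tumours were grown under the skin of C57BL/6 mice. All 4 tumours came from mice given anti-PD1 and anti-CTLA4, antibodies against the T cell checkpoint receptors PD-1 and CTLA-4. Dosing began on day 6 after the cells were injected, at 200 µg per dose and 2 doses per week for 4 doses in all, and the tumours were taken 1 day after the last dose. The other 8 libraries are of the B16mhgp100 model, 4 with Aoah and 4 with Vector, whose mice received anti-PD1 alone from day 10. No library comes from a tumour without antibody. Promoter, clonality of the cells, and age and sex of the mice were not given in the sources used here.

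Aoah encodes acyloxyacyl hydrolase, a lipase of myeloid cells and NK cells known for removing secondary acyl chains from bacterial lipopolysaccharide and so ending its recognition by TLR4. B16F10 tumours are known as poorly immunogenic, with low basal MHC class I and few infiltrating T cells. Interferon-gamma from activated T cells and NK cells acts on tumour cells, macrophages and endothelium, whereas interleukin 4 and interleukin 13 drive macrophages towards an alternatively activated state marked by genes such as Retnla, Arg1 and Mrc1.

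Expression was deposited as log2 values that gave TPM, a transcript level scaled for gene length and library total. Of all gene symbols, 14533 had at least 1 TPM in at least 2 of the 4 libraries and were tested. Differences are Aoah minus Vector in log2(TPM + 1), with the standard error (SE) of limma, 2 tumours per group, and Benjamini-Hochberg adjusted p-values over all 14533 genes. On this scale the change of low genes is understated. Levels are in TPM in the order Aoah 1 and Aoah 2 against Vector 1 and Vector 2. Between 14017 and 14278 genes reached 1 TPM in each library. TPM keeps no read depth, so no counting interval is given. The 2 Aoah libraries correlated at 0.979 across genes and the 2 Vector libraries at 0.953, against 0.939 to 0.951 between groups. Genes are not independent replicates. The labels do not say that each tumour had its own mouse, so the p-values reflect the spread of these samples, which may be technical. The melanocyte genes Tyr, Tyrp1, Dct, Pmel, Mlana, Mitf and Sox10 were present in every library. Pmel, the fibril protein of melanosomes, stood at 15881 and 14592 TPM in the Aoah tumours and at 7197 and 8252 TPM in the Vector tumours.

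Some libraries held RNA of other tissues. Vector 2 had 10.4% of its TPM in mitochondrially encoded genes, against 4.96 to 6.38% in the other 3, and it was the highest library for skeletal muscle, fat and hair follicle genes. In Vector 2 the hair follicle genes Krt71, Krt25 and Tchh stood at 82.8, 38.4 and 30.1 TPM, against 1.15 TPM or less in each of the other libraries. Acta1, the actin of skeletal muscle, stood at 55.3 TPM there and at 1.83 to 3.20 TPM in the others. Vector 1 was the highest library for antibody genes: Igkc, the kappa light chain constant region, stood at 29.2 TPM there and at 0 to 1.67 TPM elsewhere. Genes of the small intestine were present in Aoah 2, Vector 1 and Vector 2 but close to 0 in Aoah 1. The summed level of 21 alpha-defensin genes was 0.8 TPM in Aoah 1, 353.2 in Aoah 2, 200.8 in Vector 1 and 326.4 in Vector 2. Epidermal differentiation genes were higher in both Aoah tumours, as given below. The part of these admixtures in the other results was not tested, except where a value without a library is given. The genes in this paragraph were chosen after their values were seen.

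**Figure D1:**
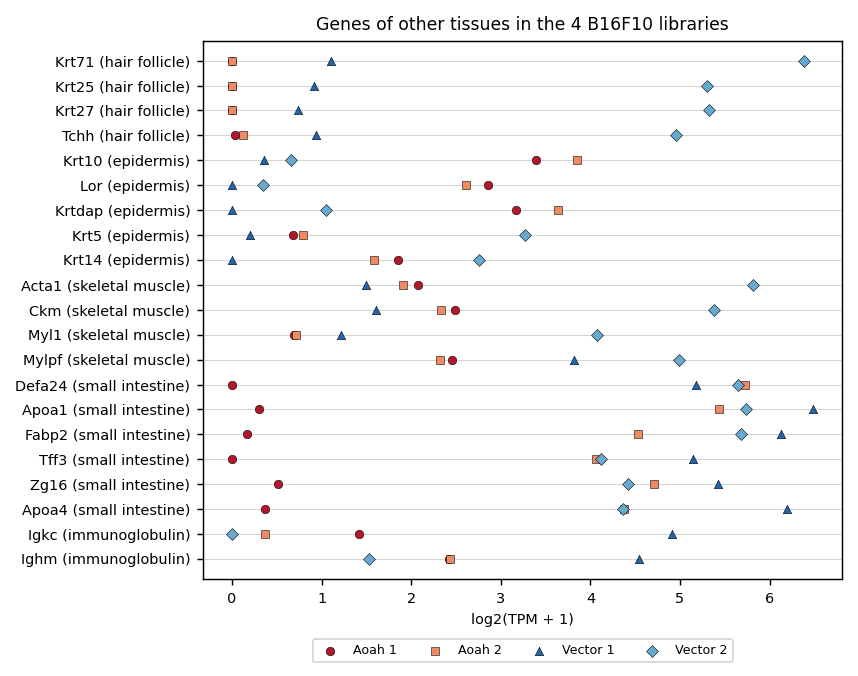
Level in log2(TPM + 1) (horizontal axis) of genes of hair follicle, epidermis, skeletal muscle, small intestine and antibodies (vertical axis), 1 point for each B16F10 library. Hair follicle genes are high in Vector 2 alone, muscle genes are highest in Vector 2, antibody genes in Vector 1, and intestinal genes in all but Aoah 1.

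In the test over all genes, 42 genes rose in Aoah tumours (0.289% of those tested) and 8 fell (0.0550%). Of these 50, 39 are named genes, 37 that rose and 2 that fell, and the other 11 are predicted genes or pseudogenes, 5 that rose and 6 that fell. The groups did not overlap, with both Aoah libraries above both Vector libraries, for 28.0% of all genes tested, and with both below for 22.6%. Counts of genes whose groups do not overlap are read against these shares. At an unadjusted p under 0.05, 1584 genes were higher (10.9%) and 1058 lower (7.28%). The authors' deposited table, made with a count model, called 666 genes higher (4.65% of 14328 with an adjusted p) and 556 lower (3.88%). Of the 50 genes called here, 36 had an adjusted p in the authors' deposited table, and 35 of them were called there in the same direction. Both analyses use the same 4 libraries. AW112010, AY036118, Bst2, Casp12, Ly6e, Rbm25 and Slc11a1 did not pass when either Aoah tumour was left out, nor Ube2l6 and Ucp2 without Aoah 1, nor Hpse and Ptprcap without Aoah 2 (adjusted p = 0.0518 to 0.121). No gene passed when the filter on low values was dropped, where the 39 named genes had an adjusted p of 0.237. In a fit of all 12 libraries of the study, 22 of the 39 lost their call: AW112010, AY036118, Aoah, Axl, C4b, Casp12, H2-Aa, H2-Ab1, H2-Eb1, Hpse, Krt10, Lor, Ly6e, Ptprcap, Retnla, Slc11a1, Smpd1, Snora23, Snord118, Snord15a, Snord94 and Ucp2 (adjusted p = 0.0522 to 0.874). A list member that passed the filter on low values through 1 group alone had to differ between groups, and no count over a list is read as support. Of the members tested, 2 of 24 in the macrophage and monocyte list and 2 of 20 in that of guanylate-binding proteins and immunity-related GTPases reached 1 TPM in the Aoah tumours alone. In the Vector tumours alone this held for 1 of 21 alternatively activated macrophage genes, 1 of 20 collagen genes and 3 of 29 blood vessel genes.

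**Figure D2:**
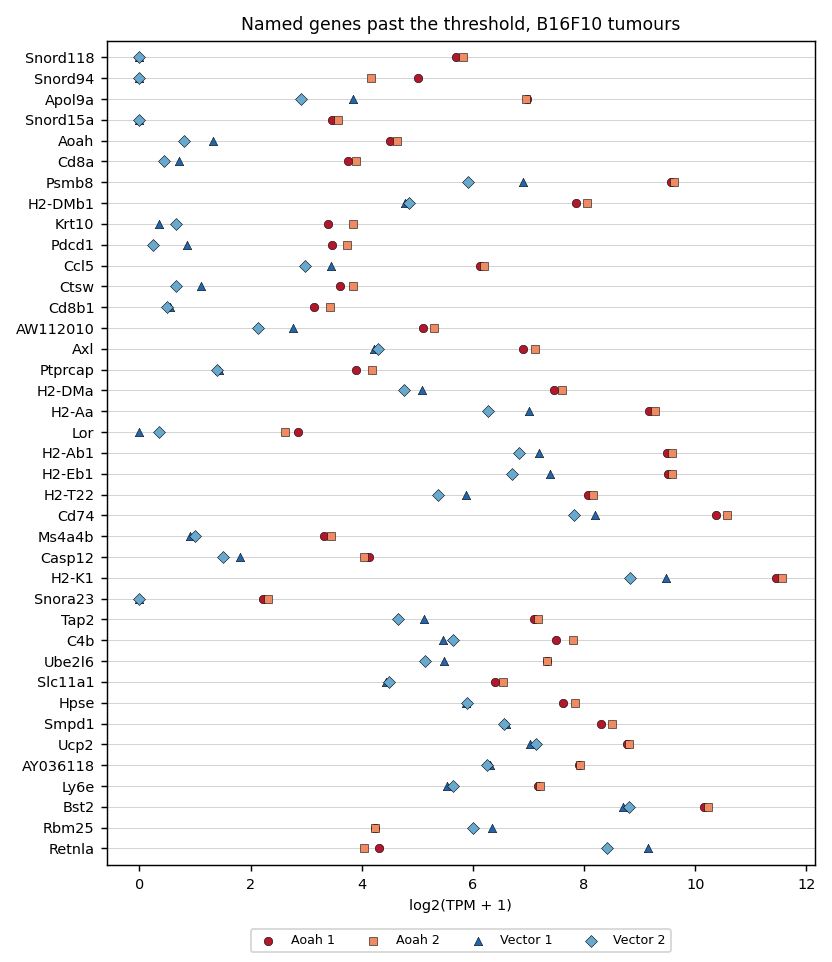
Level in log2(TPM + 1) (horizontal axis) of the 39 named genes past the threshold (vertical axis, ordered by Aoah minus Vector), 1 point for each library. The 37 genes that rose have both Aoah points to the right of both Vector points, and Rbm25 and Retnla have them to the left.

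Aoah itself was measured first. It stood at 21.8 and 23.7 TPM in the Aoah tumours and at 1.49 and 0.75 TPM in the Vector tumours. Both Aoah libraries were far above both Vector libraries, and the difference was 3.51 (SE 0.29, adjusted p = 0.0286, and 0.0757 in the fit of all 12 libraries). The label of each library therefore matched its Aoah level. Genes of lipopolysaccharide recognition other than Aoah were not called. Tlr4, the receptor of lipopolysaccharide, stood at 3.81 and 7.50 TPM in the Aoah tumours and at 8.53 and 4.41 TPM in the Vector tumours, so the groups overlapped. Its co-receptor genes Ly96 and Cd14 differed by -0.18 and 0.29. Myd88, the adaptor of most Toll-like receptors, stood at 46.3 and 38.8 against 24.8 and 22.2 TPM, a difference of 0.83 (adjusted p = 0.141). The authors' deposited table called Myd88 higher (adjusted p = 0.032), and it called 4 of 22 genes of the list higher, Aoah among them, and none lower.

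The largest fall among named genes was that of Retnla, which encodes the secreted protein RELM-alpha that interleukin 4 and interleukin 13 induce in macrophages. Retnla stood at 18.9 and 15.5 TPM in the Aoah tumours and at 571 and 339.8 TPM in the Vector tumours. Both Vector libraries were far above both Aoah libraries, with a difference of -4.61 (SE 0.28, adjusted p = 0.0238). In the fit of all 12 libraries Retnla did not pass (adjusted p = 0.337). Other genes of the alternatively activated macrophage list were lower without passing the test. Of 21 tested members, 16 had a difference below 0 and 5 above, against 51.6% above 0 over all genes tested. The median was -1.02 against 0.02 over all genes, and the groups did not overlap with Aoah lower for 13. Folr2, the folate receptor of tissue macrophages, stood at 9.12 and 7.48 against 33.1 and 37.3 TPM (difference -1.96, adjusted p = 0.0562). Ear2, a ribonuclease gene of eosinophils and macrophages, stood at 4.82 and 3.77 against 35.3 and 18.4 TPM (-2.33). The eosinophil-attracting chemokine gene Ccl24 stood at 1.84 and 1.35 against 42.6 and 10.2 TPM (-3.10). The lectin genes Mgl2 (4.64 and 8.62 against 33.2 and 19.5 TPM) and Cd209d (0.40 and 0.27 against 3.73 and 4.52 TPM) and the haemoglobin scavenger receptor gene Cd163 (0.46 and 1.04 against 4.57 and 2.88 TPM) were also lower in both Aoah libraries. Cd209d reached 1 TPM in the Vector tumours alone, so the filter already required a difference. Ear2, Ccl24, Mgl2 and Cd163 were picked outside the naming rule given with the processing. Arg1, the arginase gene often used as the marker of this state, did not follow: it stood at 39.5 and 31.2 TPM in the Aoah tumours and at 119 and 32.3 TPM in the Vector tumours, so only Vector 1 was high. Clec4n, which encodes the lectin Dectin-2, went the other way at 32.5 and 26.7 against 6.33 and 8.69 TPM (difference 1.85, adjusted p = 0.0616). The authors' deposited table called 13 of 21 members lower and 2 higher. The median of the list was -1.02 without Vector 1 and -1.49 without Vector 2.

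General macrophage and monocyte genes did not share that direction. Of 24 tested members none was called here, 23 had a difference above 0, the median was 0.70, and 20 had both Aoah libraries above both Vector libraries. The pan-macrophage genes Csf1r (22.1 and 30.9 against 29.5 and 15.98 TPM) and Adgre1 (18.5 and 20.6 against 18.4 and 10.2 TPM) differed by 0.26 and 0.48. C1qa, a subunit of the complement starter C1q that tissue macrophages make, stood at 397 and 329.9 against 159 and 168 TPM (difference 1.14, adjusted p = 0.0619). Nos2, the inducible nitric oxide synthase of classically activated macrophages, stood at 14.3 and 19.1 against 3.04 and 1.32 TPM (2.52, adjusted p = 0.0663). The scavenger receptor gene Marco stood at 6.87 and 8.72 against 0.92 and 0.94 TPM (2.18, adjusted p = 0.0571). Marco reached 1 TPM in the Aoah tumours alone, so the filter already required a difference. Ly6c2, a marker of inflammatory monocytes, stood at 22.2 and 35.3 against 6.02 and 4.95 TPM (2.17, adjusted p = 0.0619). The authors' deposited table called 9 of 25 members higher and none lower, including these 4. In bulk tumour RNA, fewer cells of a type and less RNA per cell cannot be told apart.

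**Figure D3:**
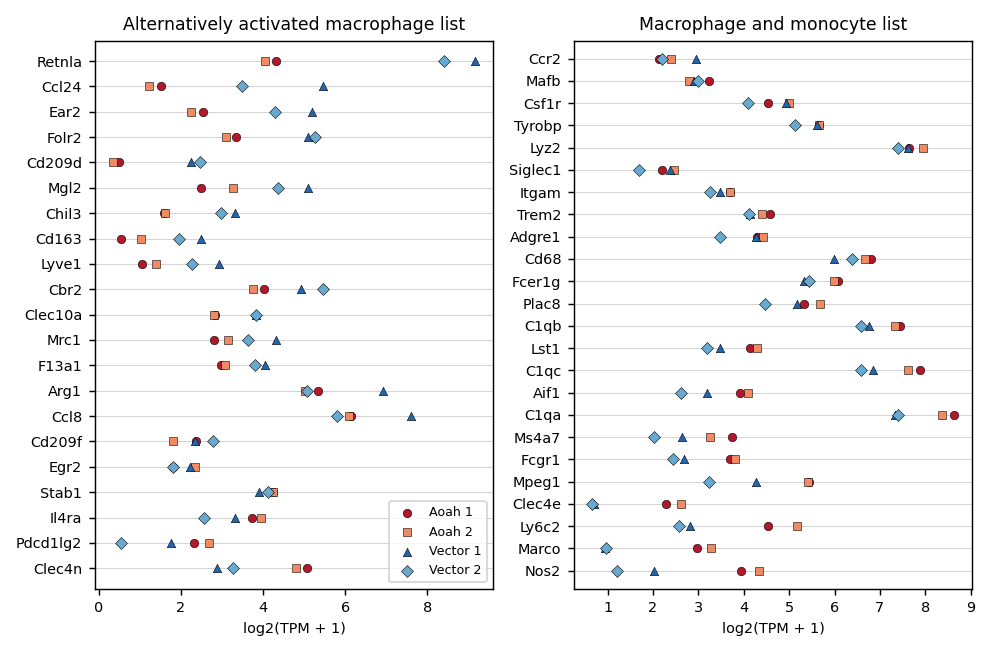
Level in log2(TPM + 1) (horizontal axes) of the 21 tested genes of the alternatively activated macrophage list and the 24 of the macrophage and monocyte list (vertical axes), 1 point for each library. In the first list Retnla and most others have the Vector points to the right, and in the second most have the Aoah points to the right.

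Several called genes encode membrane receptors, transporters and enzymes outside antigen presentation. Axl, a receptor tyrosine kinase that binds Gas6 on apoptotic cells and is also made by dedifferentiated melanoma cells, stood at 118 and 137 TPM in the Aoah tumours and at 17.6 and 18.6 TPM in the Vector tumours. It rose by 2.75 (SE 0.18, adjusted p = 0.0259, and 0.0591 in the fit of all 12 libraries), with the replicates of each group close together. Slc11a1, the metal ion transporter of the phagosome membrane, stood at 83.0 and 92.1 against 20.8 and 21.5 TPM and rose by 2.00 (SE 0.18, adjusted p = 0.0321). Ucp2, a carrier of the mitochondrial inner membrane, stood at 438 and 449 against 129 and 139 TPM and rose by 1.72 (SE 0.14, adjusted p = 0.0286). Each of these 3 genes was about as high in one Aoah tumour as in the other.

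Among enzymes, Smpd1, the lysosomal acid sphingomyelinase, stood at 316 and 360.4 TPM in the Aoah tumours and at 95.9 and 93.4 TPM in the Vector tumours (difference 1.82, SE 0.15, adjusted p = 0.0286). Hpse, the heparanase that cleaves heparan sulfate in the matrix, stood at 195 and 229 against 57.6 and 58.2 TPM (1.85, SE 0.16, adjusted p = 0.0321). Casp12, a caspase gene linked to endoplasmic reticulum stress, stood at 16.5 and 15.5 against 2.51 and 1.82 TPM (2.44, SE 0.27, adjusted p = 0.0476). The cysteine protease gene Ctsw, made by CD8 T cells and NK cells, stood at 11.1 and 13.4 against 1.16 and 0.58 TPM (2.84, SE 0.30, adjusted p = 0.0433). Of 25 tested genes of the lysosome and cathepsin list, Ctsw was the called one. Another member, the osteoclast and macrophage protease gene Ctsk, was lower without passing, at 6.84 and 5.50 against 19.3 and 17.8 TPM (-1.45, adjusted p = 0.0851). In B16mhgp100, Smpd1 and Ucp2 were below 0 in the same contrast, at -0.35 and -0.61, and Axl stood at -0.07. The difference between the models, in a limma fit of all 12 libraries, passed for none of them. The adjusted p was 0.568 for Smpd1, 0.849 for Ucp2 and 0.353 for Axl.

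The complement gene C4b rose: it stood at 179 and 221 TPM in the Aoah tumours and at 43.3 and 49.0 TPM in the Vector tumours (difference 2.09, SE 0.18, adjusted p = 0.0321). The near-identical gene C4a can share its reads, so the split between both is less certain. In the complement and coagulation list, 20 of 24 tested members had a difference above 0, with a median of 0.55. C1qc (233 and 196 against 114 and 95.5 TPM) and C2 (201 and 223 against 127 and 119.9 TPM) were higher in both Aoah libraries and did not pass, with differences of 1.03 and 0.77. Receptors for antibodies were uneven. Fcgr4, an activating Fc gamma receptor gene, stood at 27.4 and 25.4 against 8.09 and 3.17 TPM (2.15, adjusted p = 0.103), and the Fc receptor-like gene Fcrls at 1.17 and 0.80 against 7.49 and 6.44 TPM (-2.01, adjusted p = 0.0603).

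Ccl5, a chemokine gene of T cells, NK cells and macrophages, rose by 2.96 (SE 0.24, adjusted p = 0.0286), from 9.92 and 6.89 TPM in the Vector tumours to 69.3 and 72.8 TPM in the Aoah tumours. It was the called gene among 25 tested chemokines. Ccl4, another chemokine gene, stood at 10.9 and 11.3 against 1.73 and 1.42 TPM (2.23, adjusted p = 0.0558), and Ccl9 was lower at 26.1 and 32.7 against 56.0 and 74.5 TPM (-1.12, adjusted p = 0.113). None of the 19 tested cytokine genes was called here. Ifng, which encodes interferon-gamma, stood at 2.76 and 2.61 TPM in the Aoah tumours and at 0.51 and 0 TPM in the Vector tumours (1.58, adjusted p = 0.103). Of the 19, 4 reached 1 TPM in the Aoah tumours alone. Ifng is among these 4, so the filter already required a difference. Ltb, the lymphotoxin beta gene, stood at 14.6 and 17.9 against 3.00 and 1.69 TPM (2.39, adjusted p = 0.0585), and the authors' deposited table called it higher.

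Of interferon-induced genes outside antigen presentation, Apol9a, Bst2, Ube2l6 and Ly6e rose. Apol9a, an interferon-induced member of the apolipoprotein L family, stood at 125 and 123 TPM in the Aoah tumours and at 13.4 and 6.50 TPM in the Vector tumours. It rose by 3.59 (SE 0.34, adjusted p = 0.0384). Its near-identical paralogue Apol9b stood at 144 and 136 against 16.4 and 5.79 TPM (3.69, adjusted p = 0.0571), and reads can be split between these 2 genes. Bst2, which encodes the virus tether tetherin, stood at 1135 and 1206 against 416 and 448 TPM and rose by 1.44 (SE 0.14, adjusted p = 0.0384). Ube2l6, the conjugating enzyme of the ubiquitin-like protein ISG15, stood at 161 and 159.7 against 43.4 and 34.3 TPM and rose by 2.03 (SE 0.18, adjusted p = 0.0343). Ly6e, an interferon-induced membrane protein gene, stood at 143 and 146 against 45.4 and 48.8 TPM and rose by 1.60 (SE 0.16, adjusted p = 0.0400).

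The list of guanylate-binding proteins and immunity-related GTPases, cell-autonomous defence proteins that interferon-gamma induces, had the highest median of all lists. All 20 members tested had a difference above 0, the median was 2.30, and 18 had both Aoah libraries above both Vector libraries. None of the 20 passed the test here, while the authors' deposited table called 16 of 20 higher and none lower. Gbp5 stood at 14.7 and 16.4 TPM in the Aoah tumours and at 3.32 and 1.40 TPM in the Vector tumours (difference 2.36, adjusted p = 0.0711). Tgtp1 stood at 127 and 159 against 25.6 and 7.28 TPM (3.27, adjusted p = 0.082). The 2 Vector libraries differed from each other in these genes, with a mean log2(TPM + 1) over the list of 3.84 in Vector 1 and 2.52 in Vector 2, against 5.15 and 5.32 in the Aoah tumours. The median was 2.76 without Vector 1 and 1.62 without Vector 2.

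Of the 29 tested antiviral interferon-stimulated genes, Bst2 passed, 28 had a difference above 0, and the median was 1.10. Irf7, the transcription factor of type I interferon amplification, stood at 50.1 and 50.5 against 17.2 and 11.97 TPM (1.74, adjusted p = 0.0616), and Zbp1, a sensor of nucleic acids in necroptosis, at 90.3 and 105 against 23.1 and 7.16 TPM (2.81, adjusted p = 0.0976). The authors' deposited table called 18 of 30 members higher and none lower. Of 20 tested genes of interferon-gamma signalling, none passed here, and the median was 1.12. Batf2 (69.9 and 75.1 against 12.9 and 6.86 TPM), Socs1 (13.1 and 14.1 against 2.69 and 2.05 TPM) and Cd274, the gene of PD-L1 (34.1 and 40.7 against 12 and 9.29 TPM), differed by 2.81, 2.12 and 1.72. The authors' deposited table called 12 of 20 members higher. In B16mhgp100 the medians of these 3 lists were 0.03, 0.02 and -0.03.

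The start-proximal sequence of 3 of these genes is shown because they carry interferon-response letters: Apol9a and Bst2 rose, and Gbp5 stands for the GTPase list. The motifs searched on both strands, in the 250 bases before the RefSeq transcript start, were the core of the interferon-stimulated response element, GAAANNGAAA, and the gamma-activated site, TTCNNNGAA. The windows are from RefSeq on GRCm38.p6, read 5′ to 3′ on the strand of the gene, with matches to either motif in capitals. They are chr15:77411081-77411330 (minus strand) for Apol9a, chr8:71537473-71537722 (minus strand) for Bst2 and chr3:142496684-142496933 (plus strand) for Gbp5.
Apol9a: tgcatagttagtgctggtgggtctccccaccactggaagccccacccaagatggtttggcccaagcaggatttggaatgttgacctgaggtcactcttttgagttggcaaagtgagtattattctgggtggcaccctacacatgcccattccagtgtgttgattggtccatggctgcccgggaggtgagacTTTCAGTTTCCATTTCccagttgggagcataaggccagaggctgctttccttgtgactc
Bst2: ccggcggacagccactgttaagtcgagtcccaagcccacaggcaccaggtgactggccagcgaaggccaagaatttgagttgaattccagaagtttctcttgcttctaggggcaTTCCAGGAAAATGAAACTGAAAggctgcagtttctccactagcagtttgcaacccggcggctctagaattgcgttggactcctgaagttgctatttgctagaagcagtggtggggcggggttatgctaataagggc
Gbp5: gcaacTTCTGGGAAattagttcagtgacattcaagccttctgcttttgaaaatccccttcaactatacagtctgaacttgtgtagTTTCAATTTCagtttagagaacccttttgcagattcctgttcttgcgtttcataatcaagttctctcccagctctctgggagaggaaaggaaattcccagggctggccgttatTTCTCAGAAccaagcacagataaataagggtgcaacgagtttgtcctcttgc
The window of Apol9a holds 2 overlapping matches to the response element core. That of Bst2 holds 2 overlapping matches to it and 1 to the gamma-activated site that overlaps them. That of Gbp5 holds 1 match to the core and 2 to the gamma-activated site.

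Over all 27025 genes with a window, 3.46% held the response element core and 8.13% the gamma-activated site. Of the 42 genes that rose, 24 had a window, 3 of them with the core (12.5%, Apol9a, Bst2 and H2-T22) and 3 with the gamma-activated site (12.5%, Bst2, Casp12 and Psmb8). In the GTPase list 10 of 11 genes with a window held the core (90.9%) and 6 the gamma-activated site (54.5%). In the antiviral list 12 of 22 held the core (54.5%) and 4 the gamma-activated site (18.2%). Axl, Ucp2, Smpd1, Hpse, Slc11a1 and Ube2l6 had a match to neither. A match is a run of letters, not a shown binding site.

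Lymphocyte and antigen presentation genes made up much of what rose, and are given in brief. Of 27 listed T cell genes 24 passed the filter on low values, 15 of them through the Aoah tumours alone, so no count or median over them is given. Cd8a, Cd8b1 and Pdcd1 rose, but each of them is among those 15, so the filter already required a difference. Cd8a stood at 12.5 and 14.0 TPM against 0.64 and 0.36 TPM, Cd8b1 at 7.87 and 9.72 against 0.46 and 0.42 TPM, and Pdcd1, the gene of PD-1, at 9.99 and 12.3 against 0.80 and 0.19 TPM. Ptprcap, the CD45-associated protein gene (13.9 and 17.2 against 1.69 and 1.63 TPM), and the T cell membrane protein gene Ms4a4b (9.04 and 9.96 against 0.88 and 1.00 TPM) rose by 2.63 and 2.44. Of 16 listed NK cell genes 8 passed the filter, 3 of them through the Aoah tumours alone, and none was called. Nkg7, a granule protein gene among them, stood at 44.3 and 48.0 against 3.73 and 0.98 TPM (3.94, adjusted p = 0.0546). In the deposited repertoire summary, T cell receptor alpha clonotypes numbered 19 and 17 in the Aoah tumours against 1 and 2 in the Vector tumours, and beta clonotypes 20 and 21 against 2 and 1. Immunoglobulin heavy chain clonotypes numbered 2 and 2 against 15 in Vector 1 and 0 in Vector 2. Such counts depend on read depth, which is unknown here, and 2 against 2 libraries cannot go below p = 0.333 in an exact permutation test, so they were not tested.

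Of 15 tested MHC class II genes 6 rose, and of 23 tested class I genes 4 rose, against 0.289% of all genes tested. Of the class II genes, 3 reached 1 TPM in the Aoah tumours alone, none of them among those that rose. H2-DMb1, a chaperone subunit for peptide loading, stood at 230 and 264 TPM against 26.3 and 27.8 TPM (3.14, SE 0.17, adjusted p = 0.0178). The immunoproteasome gene Psmb8 stood at 759 and 779.9 against 119 and 59.0 TPM (3.18, SE 0.33, adjusted p = 0.0433). The class II chains H2-Aa (577 and 617 against 128 and 76.3 TPM), H2-Ab1 (718 and 763 against 144 and 113 TPM) and H2-Eb1 (731 and 763 against 167 and 104 TPM) rose by 2.58, 2.53 and 2.49. The invariant chain gene Cd74 (1331 and 1517 against 292 and 225 TPM) and H2-DMa (175 and 194 against 32.7 and 26.1 TPM) rose by 2.47 and 2.61. In class I, H2-K1 (2787 and 3034 against 709.6 and 455 TPM), H2-T22 (268 and 286 against 58.1 and 40.4 TPM) and the peptide transporter gene Tap2 (137 and 142.5 against 33.7 and 24.1 TPM) rose by 2.35, 2.49 and 2.25. The authors' deposited table called 9 of 14 class II genes and 20 of 23 class I genes higher and none lower.

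Non-coding genes also rose. AW112010, a transcript of activated immune cells, stood at 33.4 and 38.5 against 5.78 and 3.38 TPM (2.76, SE 0.30, adjusted p = 0.0461), and AY036118 at 239.7 and 241 against 78.7 and 75.4 TPM (1.63, SE 0.15, adjusted p = 0.0325). Of the 50 called genes, 13 were listed at 0 TPM in both libraries of 1 group, 7 higher and 6 lower in Aoah tumours, and the 8 of them with a GENCODE length had a longest transcript of 124 to 184 bases. All 13 passed the filter on low values through the other group alone, so the filter already required a difference. The 4 small nucleolar RNA genes called are among these 13. Snord118, the U8 RNA of ribosomal RNA processing, stood at 51.1 and 55.4 TPM in the Aoah tumours and was listed at 0 in both Vector tumours, Snord94 at 31.2 and 16.9 TPM, Snord15a at 10.0 and 10.8 TPM and Snora23 at 3.69 and 3.95 TPM. TPM divides by length, so few reads make a large value for so short a gene, and RNA was selected by its poly(A) tail, which mature small nucleolar RNAs lack. In B16mhgp100, Snord118 ranged from 0 to 40.2 TPM in Aoah tumours and from 0 to 9.92 TPM in Vector tumours. None of the 4 had an adjusted p in the authors' deposited table.

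The other named gene that fell was Rbm25, which encodes a splicing factor. It stood at 17.8 and 17.9 TPM in the Aoah tumours and at 80.3 and 63.1 TPM in the Vector tumours (difference -1.94, SE 0.20, adjusted p = 0.0433). In B16mhgp100 it ranged from 52.6 to 93.4 TPM over all 8 libraries, so the 2 Aoah tumours of B16F10 were the lowest of the 12. Luc7l3 and Prpf38b, also linked to the spliceosome and picked after their values were seen, stood at 9.88 and 15.2 against 51.9 and 45.7 TPM and at 7.47 and 10.7 against 55.6 and 29.4 TPM. Their differences of -1.90 and -2.06 did not pass here (adjusted p = 0.0616 and 0.0971).

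No gene of the collagen, fibroblast and pericyte lists passed the test. All 20 tested collagen genes had a difference below 0, with a median of -1.09, and 18 had both Aoah libraries below both Vector libraries, but none passed here. The authors' deposited table called 15 of 24 lower and none higher. Col6a3, a chain of the microfibrillar collagen VI, stood at 8.80 and 5.78 TPM in the Aoah tumours and at 31.7 and 39.3 TPM in the Vector tumours (-2.16, adjusted p = 0.0585). Col1a1, a chain of the main fibrillar collagen, stood at 52.97 and 32.0 against 101 and 105 TPM (-1.30), and Col4a1 of basement membranes at 28.3 and 25.0 against 53.3 and 70.1 TPM (-1.17, adjusted p = 0.0989). Every one of these was lower in Aoah 2 than in Aoah 1. The collagen median was -1.09 without Vector 1 and -0.95 without Vector 2.

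Other matrix and fibroblast genes had a median of -0.42 over 33 tested, and of -0.27 without Aoah 2. The matricellular protein gene Postn stood at 6.4 and 2.91 against 51.1 and 21.4 TPM (-2.67, adjusted p = 0.105) and Fn1, the fibronectin gene, at 62.9 and 56.1 against 133 and 118 TPM (-1.06, adjusted p = 0.075). The authors' deposited table called 3 of 34 lower. The 11 tested pericyte and smooth muscle genes had a median of -0.70, which was -0.03 without Vector 2. Rgs5, a pericyte gene, stood at 2.94 and 2.50 against 11.3 and 9.07 TPM (-1.58, adjusted p = 0.0856).

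Of 29 tested blood vessel genes, 23 had a difference below 0, the median was -0.68, and none passed here, while the authors' deposited table called 3 higher and 9 lower of 30. The junction protein gene Pecam1 stood at 10.2 and 7.61 against 23.1 and 34.0 TPM (-1.57, adjusted p = 0.0996) and Esm1, a tip cell gene, at 6.49 and 4.21 against 14.6 and 25.4 TPM (-1.70, adjusted p = 0.118). Vcam1, the adhesion molecule gene that cytokines induce, went the other way at 11.2 and 13.3 against 3.79 and 1.90 TPM (1.83, adjusted p = 0.0996). Eng, the endoglin gene, was also higher, at 228 and 229 against 128 and 132 TPM (0.81, adjusted p = 0.0918), a level far above that of Pecam1 in each library.

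**Figure D4:**
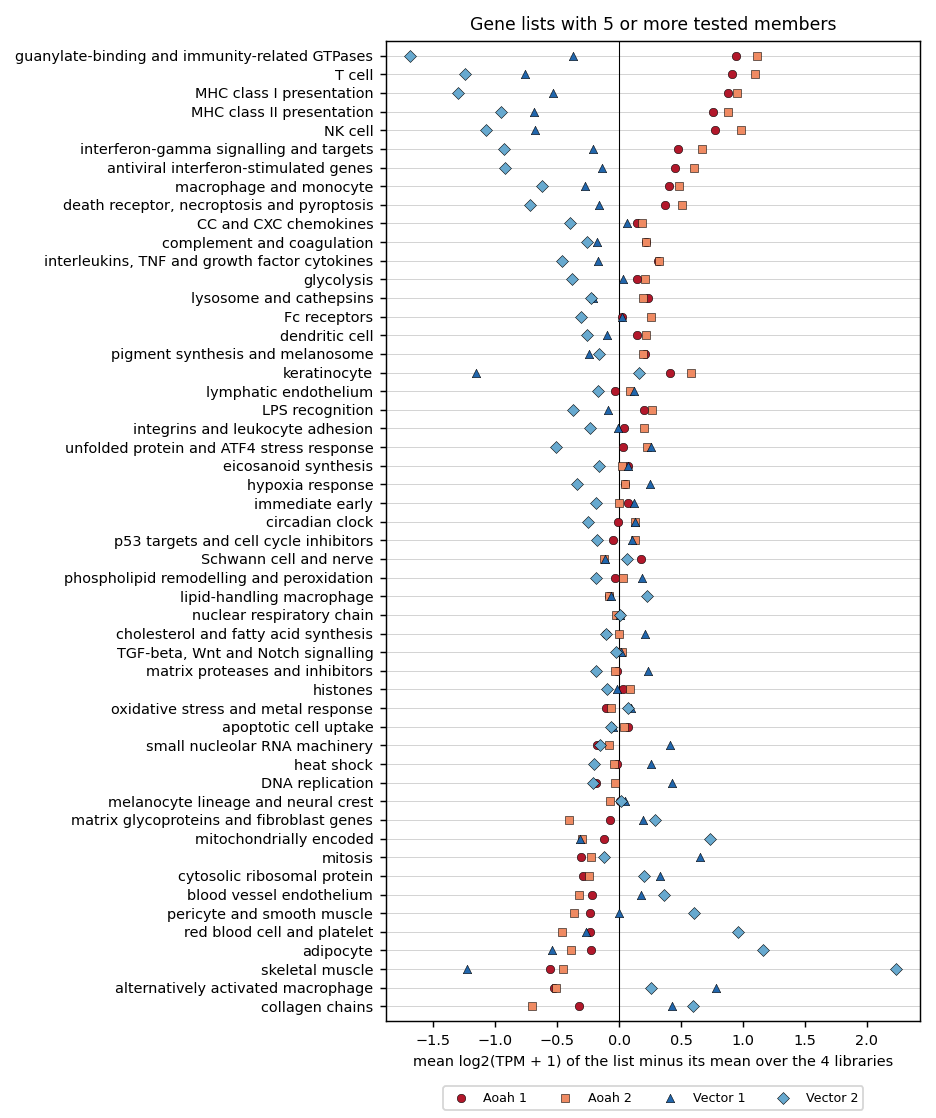
Mean log2(TPM + 1) of each gene list in each library, minus the mean of that list over the 4 libraries (horizontal axis), for lists with at least 5 tested members (vertical axis, ordered by the median log2 difference from 2.30 to -1.09). Vector 2 stands apart for muscle, fat and mitochondrially encoded genes, and Vector 1 for mitosis and DNA replication.

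Genes of the melanocyte lineage and neural crest list differed in both directions. Axl was the called gene, 10 of 21 had a difference above 0 and the median was -0.32. Leaving out Aoah 1 gave -0.21, leaving out Vector 1 gave -0.003 and leaving out Vector 2 gave -0.16. Bulk RNA does not show which cells these transcripts came from, and Kit is also a mast cell gene. Sox9, a neural crest transcription factor gene, stood at 14.1 and 11.8 TPM in the Aoah tumours and at 2.57 and 2.00 TPM in the Vector tumours (2.09, adjusted p = 0.0585). Nes, the intermediate filament gene of neural progenitors, stood at 3.01 and 3.02 against 15.4 and 14.6 TPM (-1.997, adjusted p = 0.0571), Ednrb, the endothelin receptor of melanoblasts, at 1.36 and 0.86 against 5.86 and 8.48 TPM (-1.94, adjusted p = 0.0739), and Kit at 10.0 and 6.55 against 20.0 and 27.6 TPM (-1.42, adjusted p = 0.119). The authors' deposited table called Sox9 higher and Nes, Ednrb and Kit lower. Mitf and Sox10, regulators of the melanocyte state, differed by -0.36 and 0.57, with Mitf overlapping between groups.

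Pigment synthesis genes had a median of 0.38 over 20 tested, none called here and 3 of 21 called higher in the authors' deposited table: Pmel, Bace2 and Trpm1. Bace2, a protease that processes the Pmel protein, stood at 286 and 254 against 139.5 and 117 TPM (1.07, adjusted p = 0.0739), and Trpm1 at 1120 and 1176 against 508 and 644 TPM (1.00, adjusted p = 0.0845). In the B16mhgp100 model the median of the same list was -0.65.

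Mitosis genes had a median of -0.52 over 30 tested, and 18 had both Aoah libraries below both Vector libraries. The size of the median depended on the library left out: it was -0.08 without Vector 1 and -0.90 without Vector 2. Mki67, the Ki-67 proliferation marker, stood at 3.11 and 4.58 TPM in the Aoah tumours, 38.5 TPM in Vector 1 and 10.9 TPM in Vector 2 (-2.18, adjusted p = 0.159). DNA replication genes had a median of -0.22, which became 0.07 without Vector 1, -0.60 without Vector 2 and -0.33 without Aoah 2.

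Cytosolic ribosomal protein genes took 9.79 and 9.65% of TPM in the Aoah tumours and 12.9 and 12.7% in the Vector tumours. Of 34 tested, 30 had a difference below 0, 29 had both Aoah libraries below both Vector libraries, and the median was -0.56. None passed here, and the authors' deposited table called 16 of 34 lower and none higher. Rpl37 stood at 325 and 369.9 against 772 and 709 TPM (-1.09, adjusted p = 0.0616). The nucleolar genes Ncl (144 and 146 against 397 and 270.2 TPM) and Npm1 (397 and 452 against 1169 and 689 TPM) differed by -1.17 and -1.08. They belong to the list of small nucleolar RNA machinery, of which 7 of 20 had a difference above 0 and whose median of -0.17 became 0.14 without Vector 1 and -0.03 without Aoah 1. The chaperone gene Hsp90aa1 stood at 436 and 424 against 999.97 and 753 TPM (-1.01, adjusted p = 0.0971), in a heat shock list whose median of -0.20 became 0.13 without Vector 1. Mitochondrially encoded genes had a median of -0.45, which became 0.14 without Vector 2 and -0.98 without Vector 1. Nuclear genes of the respiratory chain had one of -0.04, between -0.09 and -0.01 with a Vector tumour left out. Glycolysis genes had a median of 0.50, which was 0.11 without Vector 2. Slc16a3, the lactate exporter gene, stood at 443 and 383 against 263 and 221 TPM (0.77, adjusted p = 0.121).

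Lipid genes were divided, and none of them passed here apart from Smpd1, which was in no lipid list. The 20 tested genes of eicosanoid synthesis, which turns arachidonic acid into prostaglandins and leukotrienes, had a median of 0.22, and of 0.37 without Aoah 1. Ltc4s, the leukotriene C4 synthase gene, stood at 1.59 and 1.00 against 5.31 and 6.29 TPM (-1.58, adjusted p = 0.0971), and Hpgds, the haematopoietic prostaglandin D synthase gene, at 8.11 and 13.2 against 34.6 and 15.7 TPM (-1.10). Pla2g15, a lysosomal phospholipase gene, stood at 30.4 and 26.8 against 16.5 and 12.5 TPM (0.95, adjusted p = 0.145). The triglyceride lipase gene Pnpla2 stood at 76.6 and 82.7 against 41.6 and 34.8 TPM (1.04, adjusted p = 0.0918), and Acsl3, which activates fatty acids, at 61.2 and 67.1 against 138 and 117 TPM (-0.98, adjusted p = 0.0919). Cholesterol and fatty acid synthesis genes had a median of -0.05, which was 0.03 without Vector 1 and -0.25 without Vector 2. Among lipid-handling macrophage genes (median 0.02, and -0.004 without Vector 1), Cd36, the fatty acid and oxidised lipid receptor, stood at 4.87 and 4.48 against 11.97 and 19.4 TPM (-1.52, adjusted p = 0.113) and Ch25h, the cholesterol 25-hydroxylase gene that interferon induces, at 6.4 and 6.65 against 2.26 and 1.45 TPM (1.41, adjusted p = 0.109).

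The epidermal genes Krt10 and Lor rose. They are the 2 of 7 tested keratinocyte genes that reached 1 TPM in the Aoah tumours alone, so the filter already required a difference. Neither passed in the limma fit of all 12 libraries (adjusted p = 0.852 for Krt10 and 0.874 for Lor). Krt10, a keratin of suprabasal epidermis, stood at 9.49 and 13.4 TPM in the Aoah tumours and at 0.28 and 0.58 TPM in the Vector tumours (3.11, SE 0.30, adjusted p = 0.0384). Lor, the loricrin gene of the cornified envelope, stood at 6.27 and 5.12 against 0 and 0.27 TPM (2.57, SE 0.28, adjusted p = 0.0461). Krtdap, from the same layers, stood at 7.99 and 11.4 against 0 and 1.07 TPM (2.88, adjusted p = 0.0707). The basal keratin genes Krt5 (0.60 and 0.73 against 0.15 and 8.68 TPM) and Krt14 (2.61 and 2.01 against 0 and 5.76 TPM) were highest in Vector 2. In B16mhgp100, Krt10 reached 3281 TPM in 1 of the 8 libraries, and its median there was 0.65 TPM. It stood at 5 TPM or more in 3 of those 8 libraries, and its highest level in a B16mhgp100 Vector tumour was 13.2 TPM.

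The lists of skeletal muscle, fat and red cell genes had medians of -1.01, -0.83 and -0.76, which became 0.79, 0.29 and -0.11 without Vector 2. Among the genes with the largest differences in the authors' deposited table were Krt71, Krt25 and Tchh, called lower there with log2 fold changes of -12.36, -11.11 and -8.39, although Vector 1 held 1.15 TPM or less of each. Also named there were Il2rb, a receptor chain gene of T and NK cells, at 15.1 and 17.6 against 2.64 and 0.69 TPM, Abca12, a lipid transporter gene of keratinocytes, at 1.35 and 1.94 against 14.8 and 5.81 TPM, and the imprinted gene Mest at 5.39 and 6.71 against 16.2 and 49.8 TPM. For Fam220a, at 6.46 and 7.05 against 15.0 and 12.9 TPM (-0.95, adjusted p = 0.149), the authors' value is not given because more than 1 identifier carries that symbol. The list of Schwann cell genes had a median of 0.07, which was -0.26 without Aoah 1, -0.02 without Vector 1 and -0.14 without Vector 2. In it stood Tubb3, a neuronal tubulin gene, at 226 and 199 against 97.4 and 91.2 TPM (1.16, adjusted p = 0.0603) and Mbp at 118 and 115 against 223 and 307 TPM (-1.16, adjusted p = 0.0861).

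**Figure D5:**
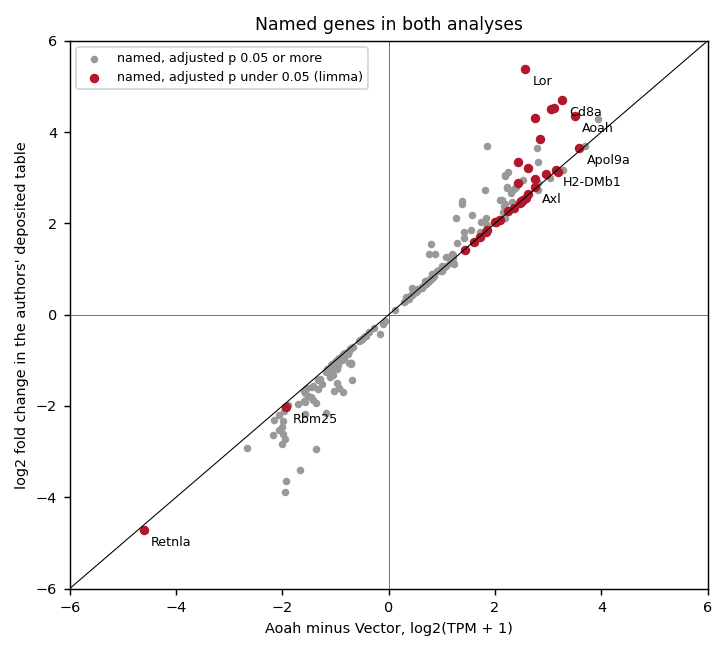
Aoah minus Vector in log2(TPM + 1) (horizontal axis) against the log2 fold change in the authors' deposited table (vertical axis) for the named genes with an adjusted p in both, with the line of equality. Most points lie near the line, and low genes such as Lor (2.57 against 5.38) and Cd8a (3.25 against 4.70) lie above it. Krt71 (-3.75 against -12.36) falls below the plotted range and is not shown.

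The same contrast could be set beside B16mhgp100, where the tumour line, the antibodies and the first dose day all differ and cannot be told apart. In a fit of all 12 libraries, the difference between the models passed for 5 of 16556 genes (0.0302%, with 936 or 5.65% at an unadjusted p under 0.05), 3 of them named: Apol9a, H2-DMb1 and Psmb8. None of these 3 passed without Aoah 1, without Aoah 2 or without Vector 2 of B16F10 (adjusted p = 0.0965 to 0.285). In B16mhgp100, Apol9a ranged from 112 to 219 TPM in Aoah tumours and from 133 to 165 TPM in Vector tumours, so the 2 Vector tumours of B16F10, at 13.4 and 6.50 TPM, were the lowest of the 12. H2-DMb1 ranged from 75.2 to 115 TPM and from 56.6 to 83.3 TPM, and Psmb8 from 451 to 606 TPM and from 319 to 475 TPM, and for both genes the B16F10 Vector tumours were the lowest and the B16F10 Aoah tumours the highest. Retnla showed opposite differences, -4.61 in B16F10 and 3.68 in B16mhgp100, but in B16mhgp100 its Aoah tumours ranged from 5.32 to 992 TPM, and the difference between the models did not pass (adjusted p = 0.40). The median of the alternatively activated macrophage list was 1.26 in B16mhgp100, and that of the collagen list -0.05. Axl ranged from 23.99 to 122 TPM in the B16mhgp100 Aoah tumours and from 62.4 to 72.3 TPM in its Vector tumours, and the difference between the models, 2.82, did not pass (adjusted p = 0.35).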

How the data were processed

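RNA of 4 B16F10 tumours, 2 with Aoah and 2 with Vector, was compared; groups came from the sample titles. Per the labels' protocols, poly(A) RNA was selected with oligo(dT) beads and made into libraries that are not stated to keep strand. The authors deposited log2 values that gave TPM after removal of a pseudocount of 1. Per the submitters' processing notes, RSEM and DESeq2 were used and the build was mm39; their versions were not given in the sources used here. RSEM shares reads between near-identical genes. The authors also deposited a table for B16F10 with, per gene, a mean normalised signal (a count scaled by size factors), a log2 fold change with its error, a test score, and p-values. A deposited repertoire summary holds other measures, such as clonotypes and clones per receptor chain; how it was run is not stated here.

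Genes with at least 1 TPM in at least 2 of the 4 libraries were tested on the log2(TPM + 1) scale by limma 3.58.1 (R 4.3.3), 2-sided, with an intensity trend, no block, and Benjamini-Hochberg adjustment with a threshold of 0.05. The difference between the models was the interaction in a fit of 12 libraries with 4 group means. The 55 gene lists hold 1229 distinct genes, of which 1007 were tested, and are described without a test. The members and lists were chosen with earlier results of these data known. Named genes were Aoah, all named genes past the threshold, up to 4 members of each list with the smallest p, the 10 largest changes in each direction in the authors' table at a mean of at least 100, and those called between the models; predicted genes were counted only. The list members Tlr4, Ly96, Cd14, Ear2, Ccl24, Mgl2, Cd163, Arg1, Csf1r, Adgre1, Col1a1 and Hpgds were named outside this rule. No adjusted p is given for them. Files' identifiers were paired with symbols for 25784 of 26878 genes. Simulated data held 14533 genes, 200 of them changed, with independent normal noise. The changed genes were drawn from those with a mean log2(TPM + 1) above 3. The fit for Aoah against Vector called 100 of 100 genes changed by 3 (log2), 29 of 100 changed by 1, and 11 unchanged genes. These figures do not cover changed genes at lower means or variation shared across genes. Promoter windows came from RefSeq (GRCm38.p6) and no coordinate was converted between builds. The alternatives tried are given in the closing section. TPM keeps no depth, so precision rests on 2 tumours per group.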

Additional observations from a re-analysis of the deposited data

Results flagged for a closer look

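Aoah minus Vector differed between B16F10 and B16mhgp100 by the interaction test for 3 named genes. The difference was 3.52 for Apol9a (adjusted p = 0.0302), 2.82 for H2-DMb1 (adjusted p = 0.0147) and 2.82 for Psmb8 (adjusted p = 0.0434), in limma over 12 libraries. All 3 were higher with Aoah in both B16F10 Aoah tumours than in both B16F10 Vector tumours. Tumour line, antibodies and first dose day change together between the models and cannot be told apart. The median difference between the models over all genes was 0.16, and -0.01 under median-of-ratios scaling, where the adjusted p was 0.0074 for Apol9a, 0.0573 for H2-DMb1 and 0.0570 for Psmb8. With any 1 of the B16F10 libraries Aoah 1, Aoah 2 or Vector 2 left out, none of the 3 passed: adjusted p ranged from 0.0965 to 0.285. The same held without B16mhgp100 Vector 1, 3 or 4, with adjusted p from 0.0517 to 0.157. H2-DMb1 did not pass without B16F10 Vector 1 (0.0628), Psmb8 without B16mhgp100 Aoah 1 (0.0779) or Aoah 3 (0.0813), and Psmb8 and Apol9a without B16mhgp100 Aoah 2 (0.134 and 0.0944) or Vector 2 (0.0501 and 0.0731).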

How the results depend on the processing

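The counts of genes past the threshold moved with the processing, while the sign of all 39 named calls was the same under every alternative that gave a value. Against 42 higher and 8 lower genes, a pseudocount of 0.1 called 25 higher and 7 lower, a filter of 5 TPM 69 and 11, median-of-ratios scaling 111 and 20, removal of mitochondrially encoded genes 79 and 14, and limma without the trend 11 and 5. Of the 39 named genes, 30 lost their call in limma without the trend (adjusted p = 0.0521 to 0.0765). With a pseudocount of 0.1, 16 lost it (adjusted p = 0.0560 to 0.0898), and Bst2 lost it under median-of-ratios scaling (adjusted p = 0.0546). Without a filter on low values limma called 0 higher and 0 lower, with 3335 genes at an unadjusted p under 0.05. A fit of all 12 libraries called 62 higher and 11 lower and kept 20 of the 50 genes, 22 of the 39 named ones losing their call (adjusted p up to 0.874). Replicate numbers are shared by the groups, but the labels do not say that they pair tumours, and the deviations of same-numbered tumours correlated at -0.11. With the replicate number as a block, 496 genes were called higher and 269 lower, all 50 among them. Leaving out each tumour in turn gave 84 to 1707 higher and 20 to 1259 lower genes, the lone tumour being assumed to vary like the other group. The total was 105 with Aoah 1 left out (41 of the 50 genes kept), 146 with Aoah 2 left out (41 kept), 2285 for Vector 1 (50 kept) and 2394 for Vector 2 (50 kept). For the difference between the models, 5 genes became 46 without a filter, 10 with median-of-ratios scaling, 11 without the trend and 2 with the model and replicate number as a block. With that block none of Apol9a, H2-DMb1 and Psmb8 passed (adjusted p = 0.216, 0.210 and 0.216). Leaving out each of the 12 tumours gave 2 to 45 genes, the 45 being without B16mhgp100 Aoah 4. The cause of these moves was not tested. The sign of 5 genes, none past the threshold, turned when 1 Vector tumour was left out. The range was -0.71 to 0.39 for Mmp9 (above 0 without Vector 1), and, above 0 without Vector 2, -0.28 to 0.060 for Irf4, -3.83 to 0.49 for Acta1, -2.87 to 0.14 for Car3 and -1.61 to 0.18 for Hba-a2. Medians changed sign under at least 1 alternative for 19 of 55 lists. With 2 tumours per group, an exact permutation test cannot go below p = 0.333, and the depth behind each TPM is unknown.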
